A study of Homo sapiens with 6 samples.

Results

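Interferon-stimulated genes were followed as a set of 51 named genes, of the 58735 genes in the count table, in Huh7, an established cell line from a human hepatocellular carcinoma. The set is a list of gene symbols with no threshold on a measured value, but it was drawn up with earlier results of these libraries known, so its counts are a description and not independent evidence. All 51 symbols were found. RNA-seq compared 3 shITGB5 libraries, in which a short hairpin RNA was directed at ITGB5 (the integrin beta 5 subunit), with 3 shcontrol libraries, which carried a control hairpin. Both groups were the same line, grown in RPMI-1640 with 10% fetal bovine serum, and the labels name no interferon or other agent in either group. The sources used here do not give the hairpin sequences, the number of hairpins or whether each group was 1 clone. Nothing in the labels says that the 3 libraries were grown as separate cultures, so the spread behind the p-values may be technical.

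Type I interferons bind a receptor of the chains IFNAR1 and IFNAR2, which carry the kinases TYK2 and JAK1. The kinases phosphorylate STAT proteins such as STAT2, which joins IRF9 in the complex ISGF3, and ISGF3 binds the interferon-stimulated response element (ISRE) in the promoters of induced genes. The products block viruses at entry, translation, RNA stability and budding, and many are also expressed at a low level without added interferon. Hepatocytes respond to type I and type III interferons, and the response is best known there from infection with hepatitis B and C viruses.

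The libraries held 16563911 to 18011313 counts in shITGB5 cells and 15777922 to 17476580 in shcontrol cells. The share of mitochondrial counts was 3.24% to 3.29% in shITGB5 cells and 3.46% to 3.54% in shcontrol cells, and 25856 to 26143 genes in shITGB5 cells and 26795 to 26976 in shcontrol cells had a count above 0. Both measures separated the groups, and their part in the results was not tested. A count of 0 allows a level of up to 0.167 to 0.190 CPM (TMM-scaled counts per 1e6 counts), for counting error only. ITGB5 itself stood at 176 ± 4.30 CPM in shITGB5 libraries and 212 ± 6.35 CPM in shcontrol libraries (SD, n = 3 each). This was 16.8% lower (log2 change -0.27, SE 0.032, edgeR adjusted p = 2.13e-09), with no overlap between groups. An exact permutation test of 3 against 3 libraries gave p = 0.1, the smallest it can give. Of 12 hepatocyte and hepatoma markers, all tested, 9 rose, 0 fell and 3 did not pass, where 8.31% of all genes rose and 6.74% fell. The summed level of these markers was 2120 to 2170 FPKM (CPM per kilobase of gene length) in shITGB5 cells and 1870 to 1920 FPKM in shcontrol cells. Their part in the results on interferon-stimulated genes was not tested. Of 10 blood and immune markers, 3 had enough counts to test and none passed in edgeR (0 lower and 1 higher at an unadjusted p under 0.05). In DESeq2 0 passed, and ITGAM was given no adjusted p. Their summed level was 22.0 to 23.2 FPKM in shITGB5 cells and 20.3 to 20.6 FPKM in shcontrol cells, almost all of it CD14 and LYZ. The defining leukocyte markers PTPRC, CD3E, HLA-DRA and MS4A1 had at most 4 counts in any library.

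The members spanned a wide range of levels per gene length. ISG15, a ubiquitin-like protein, was the most abundant at 67.3 FPKM in shITGB5 cells and 65.3 FPKM in shcontrol cells. It was followed by the RNA-editing enzyme ADAR, then JAK1 and then IFI6. The summed level of the 51 genes was 351, 354 and 355 FPKM in the shITGB5 libraries, against 384, 390 and 387 FPKM in the shcontrol libraries. Every shITGB5 sum was therefore below every shcontrol sum, and the 3 sums within a group differed little. Abundant members weigh most in these sums, so they do not show a fall of the whole set. Mean FPKM in shITGB5 and shcontrol cells was 44.5 and 51.7 for JAK1, 37.4 and 44.3 for IFI6, and 50.5 and 55.3 for ADAR, while ISG15 was slightly higher in shITGB5 cells. In bulk RNA, fewer cells with an mRNA and less of it per cell cannot be told apart.

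**Figure D1:**
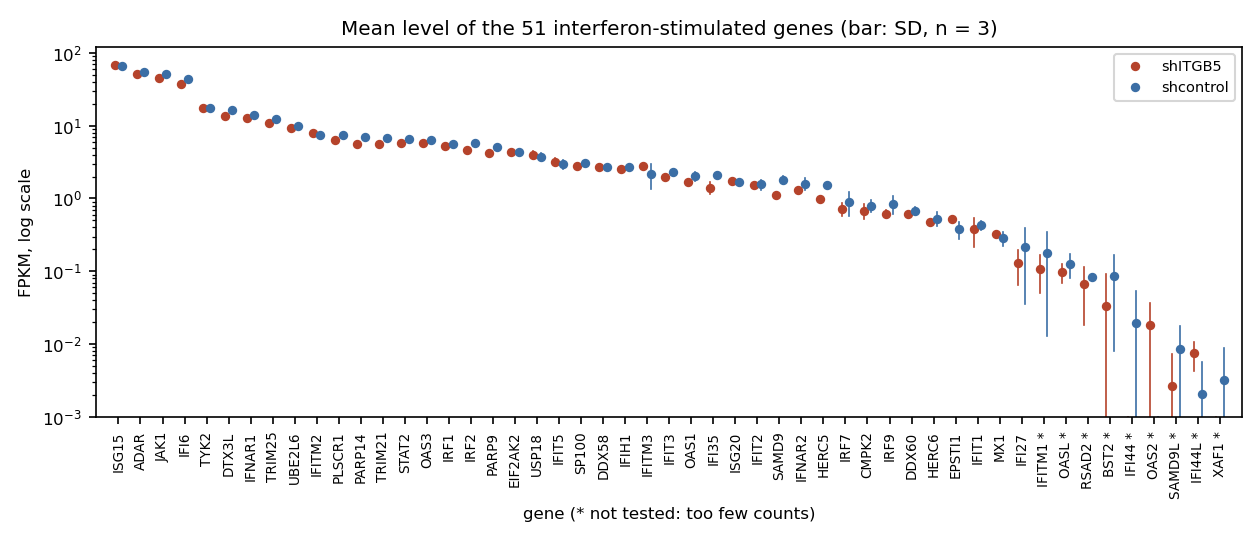
Mean FPKM of each of the 51 genes on a log axis, in shITGB5 (red, left of each pair) and shcontrol cells (blue), with SD bars (n = 3 each) and an asterisk on the 9 genes with too few counts to test. Means of 0 cannot be drawn on this axis, which leaves out IFI44 and XAF1 in shITGB5 cells and OAS2 in shcontrol cells, and ISG15, ADAR, JAK1 and IFI6 stand above the rest.

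Of the 51 genes, 42 passed the filter on low counts and 9 did not. The 9 were OAS2, OASL, SAMD9L, IFITM1, BST2, RSAD2, IFI44, IFI44L and XAF1, several of them among the most strongly induced genes of treated cells, and none exceeded 10 counts in any library. Of the 42 tested, 15 fell, 0 rose and 27 did not pass (edgeR quasi-likelihood test, adjusted over all 16577 genes, threshold 0.05). The 15 are 35.7% of those tested, where 6.74% of all genes fell and 8.31% rose. At an unadjusted p under 0.05, 18 members were lower and 0 higher. DESeq2 gave an adjusted p to 31 of the 42, of which 11 fell and 0 rose. EPSTI1, IFITM3 and MX1, which had the highest positive changes in edgeR, were given none there and could not be called. IFI27 was the only tested member that exceeded the cut-off of the filter in fewer than 6 libraries.

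The log2 change was negative for 34 of the 42 tested members (81.0%, against 50% of all genes tested), and its median was -0.16, against -0.00 over all genes. A change below -0.1 was found for 29 members (69.0%, against 26.9% of all genes), and one below -0.2 for 18 (42.9%, against 14.1%). Among the 27 members that did not pass, 19 were negative (70.4%, against 50.9% of all genes that did not pass) and the median was -0.11. This median was -0.29 for the 5 receptors, kinases and transcription factors among them, 5 of them negative, and -0.05 for the 22 effectors, 14 of them negative. Leaving out 1 library turned the direction of 9 of the 27. Every shITGB5 library lay below every shcontrol library for 19 members (45.2%, against 13.8% of all genes), and above for EPSTI1 alone (1 of 42, against 14.7% of all genes).

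**Figure D2:**
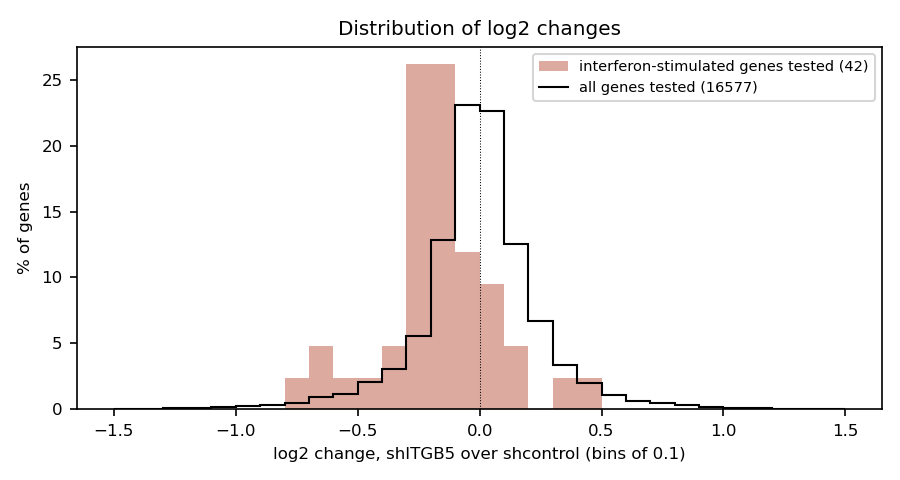
Share of genes (%) by log2 change in bins of 0.1, for the 42 tested interferon-stimulated genes (filled) and for all 16577 genes tested (line), drawn between -1.5 and 1.5. The members peak in the bins from -0.3 to -0.1, left of the peak of all genes next to 0.

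More of the abundant members passed, and more of the abundant genes in all. Of the 17 members with a mean of at least 20 CPM, 11 fell (64.7%, against 11.2% of all genes at that level), while 4 of the 25 members under 20 CPM fell (16%, against 2.39% of all genes at that level). The more abundant members had a median log2 change of -0.16 and a median SE of 0.057. The less abundant members had a median log2 change of -0.20 and a median SE of 0.15. For 16 of the 27 members that did not pass, the 95% interval excluded a fall of 20%, and the median interval of these 27 ran from -18.3% to 15.6%. The 15 falls were modest, between 8.07% and 37.3% with a median of 15.6%. Leaving out each library in turn gave 10 to 13 falls. Without a filter on low counts 9 members fell. ADAR, DTX3L, HERC5, JAK1, PARP14, PARP9, SAMD9 and TRIM25 fell in all 12 alternative fits.

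**Figure D3:**
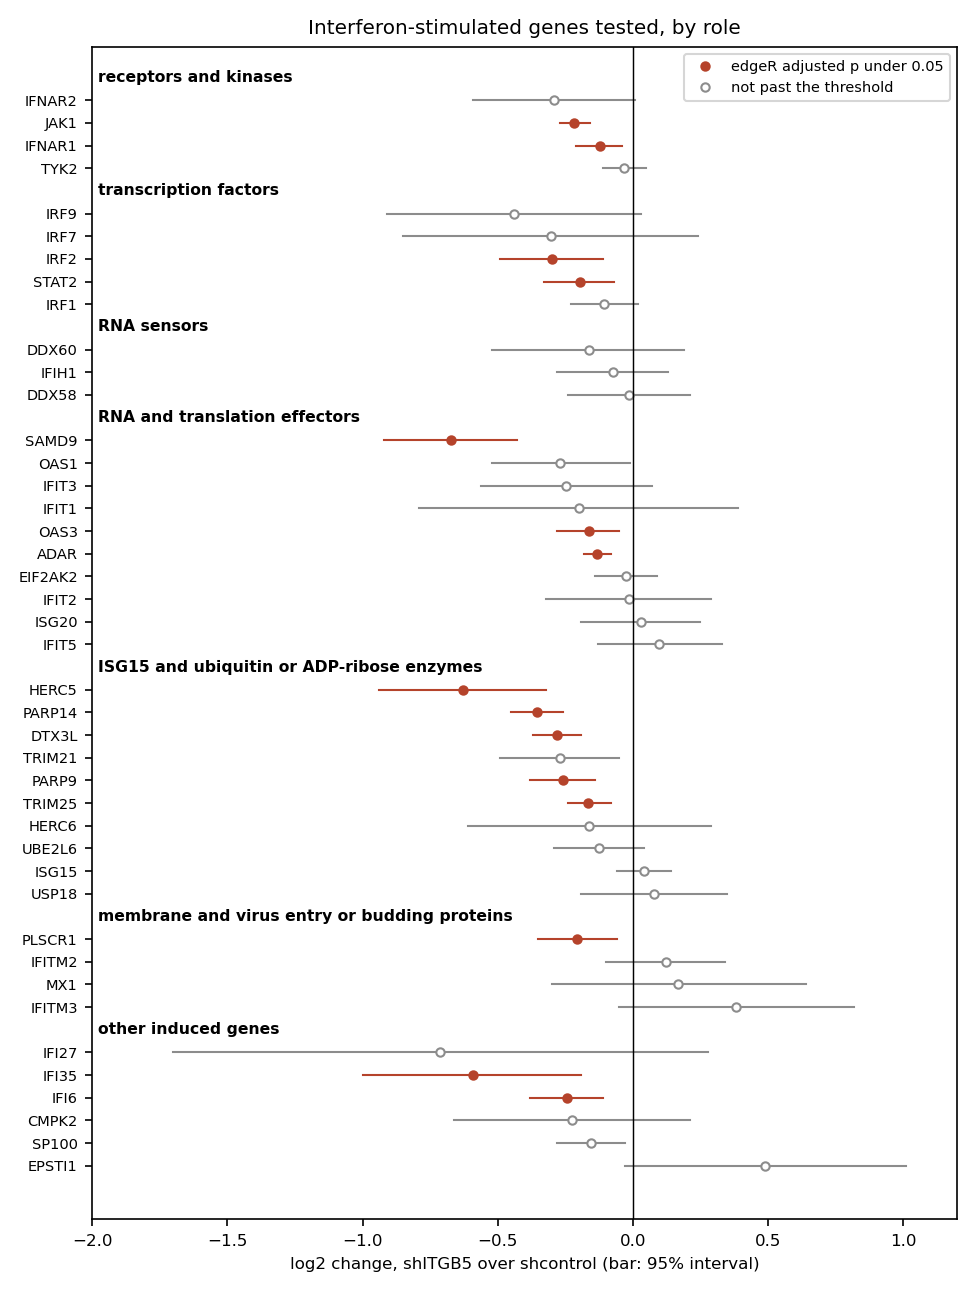
Log2 change, shITGB5 over shcontrol, with its 95% interval for the 42 tested members grouped by role and ordered by change. Filled points are the 15 genes past the adjusted p of 0.05, all left of 0, and open points are the 27 that did not pass.

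The receptor chains and kinases all had negative changes, and 2 of the 4 passed (50%, where 6.74% of all genes fell). JAK1, the kinase bound to IFNAR2, stood at 282, 279 and 282 CPM in shITGB5 libraries, against 326, 328 and 326 CPM in shcontrol libraries. Its replicates were the tightest of the 15, with a wide gap between groups, and it was 14.0% lower (log2 -0.22, SE 0.027, edgeR adjusted p = 6.18e-09). IFNAR1 stood at 81.9, 81.4 and 80.6 CPM in shITGB5 libraries, against 88.4, 86.4 and 90.5 CPM in shcontrol libraries. That gap of 8.07% (log2 -0.12, SE 0.043) lay close to the threshold (edgeR adjusted p = 0.0441), and the call was lost whichever of the 6 libraries was left out (adjusted p 0.0526 to 0.159). TYK2, the kinase bound to IFNAR1, stood at 111, 120 and 118 CPM in shITGB5 libraries, against 114, 122 and 122 CPM in shcontrol libraries (log2 -0.03, adjusted p = 0.676). Its groups overlapped, and its 95% interval ran from -7.36% to 3.2%. IFNAR2 stood at 5.74, 6.11 and 6.19 CPM in shITGB5 libraries, against 5.91, 8.59 and 7.60 CPM in shcontrol libraries (log2 -0.29, adjusted p = 0.215), where shcontrol library 1 lay within the shITGB5 range.

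Of the 5 transcription factors, all had negative changes and 2 passed (40%, where 6.74% of all genes fell). STAT2, the subunit of ISGF3 that type I and III interferon signalling depends on, stood at 34.8, 34.8 and 35.2 CPM in shITGB5 libraries, against 38.6, 43.8 and 37.6 CPM in shcontrol libraries. It was 12.7% lower (log2 -0.20, SE 0.066, edgeR adjusted p = 0.0313). IRF2, which competes with IRF1 at its sites and is mostly a repressor of these promoters, stood at 14.1, 14.5 and 14.7 CPM in shITGB5 libraries, against 17.2, 16 and 20.1 CPM in shcontrol libraries. It was 18.7% lower (log2 -0.30, SE 0.097, edgeR adjusted p = 0.0253). For both genes the shITGB5 libraries were tight and below a more scattered shcontrol group. STAT2 lost its call without shITGB5 library 1, 2 or 3 (adjusted p 0.0679, 0.0652 and 0.0688) or shcontrol library 2 (0.301). IRF2 lost it without shITGB5 library 1, 2 or 3 (0.0788, 0.0529 and 0.0544) or shcontrol library 3 (0.242). IRF9, the DNA-binding subunit of ISGF3, stood at 2.0, 2.6 and 2.44 CPM in shITGB5 libraries, against 3.5, 2.21 and 3.86 CPM in shcontrol libraries (log2 -0.44, adjusted p = 0.235), with overlap between the groups. IRF9 shares 5513 bases of 1 strand with AL136295.5, whose counts are 46.3% of its own, so reads from both may be mixed in its value. IRF1 stood at 37.9, 41.7 and 42.4 CPM in shITGB5 libraries, against 41.4, 42.5 and 47.5 CPM in shcontrol libraries (log2 -0.11, adjusted p = 0.294). IRF7 averaged 1.91 ± 0.397 CPM in shITGB5 cells and 2.36 ± 0.861 CPM in shcontrol cells (SD, n = 3 each), and did not pass. Receptors, kinases and factors together gave 4 falls of 9 (44.4%). That count was 1 without shITGB5 library 1, 2 or 3 and also with no filter on low counts, and 2 without shcontrol library 2 or 3.

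The 3 RNA sensors did not pass in edgeR, and none had an unadjusted p under 0.05. In DESeq2, IFIH1 and DDX58 did not pass, and DDX60 was given no adjusted p. DDX58 (RIG-I) averaged 11.8 ± 1.10 CPM in shITGB5 cells and 11.9 ± 0.693 CPM in shcontrol cells. IFIH1 (MDA5) averaged 13.1 ± 0.312 CPM in shITGB5 cells and 13.9 ± 1.26 CPM in shcontrol cells. DDX60, a helicase linked to RIG-I signalling, averaged 4.10 ± 0.327 CPM in shITGB5 cells and 4.60 ± 0.526 CPM in shcontrol cells (SD, n = 3 each for the 3 genes). Each sensor's range overlapped between groups.

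Among 13 genes that act on RNA or translation, 10 were tested and 3 fell (30%, where 6.74% of all genes fell). SAMD9, a restriction factor of poxviruses (chromosome 7, 93099513 to 93118023, minus strand, GRCh38), stood at 7.74, 7.26 and 8.01 CPM in shITGB5 libraries, against 10.7, 13.9 and 12.2 CPM in shcontrol libraries. This was the largest fall of the 15, at 37.3% (log2 -0.67, SE 0.12, edgeR adjusted p = 3.16e-05). Its paralog SAMD9L, next to it on the chromosome, had too few counts to test. ADAR, which edits adenosine to inosine in double-stranded RNA (chromosome 1, 154582057 to 154628013, minus strand), stood at 497, 488 and 482 CPM in shITGB5 libraries, against 523, 547 and 539 CPM in shcontrol libraries. The fall was small, at 8.76% (log2 -0.13, SE 0.025), but well outside the replicate spread (edgeR adjusted p = 4.54e-05).

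OAS3, which makes the 2-5A messenger that activates RNase L, stood at 44.1, 48.8 and 48.5 CPM in shITGB5 libraries, against 52.9, 50 and 55.3 CPM in shcontrol libraries. It was 10.7% lower (log2 -0.16, SE 0.057, edgeR adjusted p = 0.0418), with a narrow gap between groups. The call was lost without shITGB5 library 1 or 3 (adjusted p 0.244 and 0.0508) or shcontrol library 1 or 3 (0.103 and 0.212). Its neighbour OAS1 averaged 8.29 ± 0.369 CPM in shITGB5 cells and 9.97 ± 1.27 CPM in shcontrol cells (log2 -0.27, adjusted p = 0.164). EIF2AK2 (PKR), the kinase that stops translation on double-stranded RNA, averaged 46.0 ± 1.22 CPM in shITGB5 cells and 46.8 ± 0.237 CPM in shcontrol cells, with a 95% interval of -9.15% to 6.31%. The IFIT genes, whose products bind foreign RNA ends, had log2 changes of -0.25 (IFIT3), -0.20 (IFIT1), -0.02 (IFIT2) and 0.10 (IFIT5), none past the threshold. All 3 IFIT3 values in shITGB5 cells (4.84 to 5.51 CPM) were below those in shcontrol cells (5.79 to 6.65 CPM). IFIT1, IFIT2 and IFIT3 overlap LIPA on the opposite strand, which had 3300%, 963% and 1080% of their counts, and the sources used here do not say whether counting used strand, so their values are uncertain. ISG20, an exonuclease, averaged 12.8 ± 1.08 CPM in shITGB5 cells and 12.5 ± 1.36 CPM in shcontrol cells (SD, n = 3 each throughout).

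ISG15 and the enzymes of ubiquitin-like and ADP-ribose modification held the most falls by number, with 5 of 10 (50%, where 6.74% of all genes fell). The share was also 50% among the 4 receptors and kinases, so it did not set this group apart. HERC5, the main ligase that attaches ISG15 to proteins in human cells (chromosome 4, 88457117 to 88506163, plus strand), stood at 5.29, 4.42 and 4.43 CPM in shITGB5 libraries, against 7.63, 6.98 and 7.28 CPM in shcontrol libraries. It was 35.3% lower (log2 -0.63, SE 0.15, edgeR adjusted p = 0.00208). TRIM25, a ubiquitin ligase that acts with RIG-I, stood at 106, 103 and 101 CPM in shITGB5 libraries, against 119, 119 and 109 CPM in shcontrol libraries, and was 10.8% lower (log2 -0.16, SE 0.040, edgeR adjusted p = 0.00179).

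ISG15 itself did not share that pattern. It stood at 60.9, 64.1 and 64.8 CPM in shITGB5 libraries, against 63.8, 59.3 and 61.4 CPM in shcontrol libraries, so the groups overlapped. Its log2 change was 0.04 (adjusted p = 0.682), and the 95% interval, -4.02% to 10.3%, excluded a fall of the size seen in any of the 15. UBE2L6, the conjugating enzyme for ISG15, stood at 20.3, 20 and 20.3 CPM in shITGB5 libraries, against 21.1, 22.5 and 22.6 CPM in shcontrol libraries. All of its shITGB5 values were lower, but the change did not pass (log2 -0.13, adjusted p = 0.366). USP18, the protease that removes ISG15, averaged 8.47 ± 1.0 CPM in shITGB5 cells and 8.01 ± 1.04 CPM in shcontrol cells (SD, n = 3 each). TRIM21, an intracellular antibody receptor, stood at 11.5, 10.1 and 11.0 CPM in shITGB5 libraries, against 14.2, 13.4 and 11.8 CPM in shcontrol libraries, without overlap but not past the threshold (log2 -0.27, adjusted p = 0.0979). HERC6 was at 2.72 ± 0.252 CPM in shITGB5 cells and 3.06 ± 0.661 CPM in shcontrol cells, and did not pass.

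The other falls in this group came from 1 locus on chromosome 3. PARP9 (122527924 to 122564577, minus strand) and DTX3L (122564238 to 122575203, plus strand) are read in opposite directions and overlap by 340 bases at their 5′ ends, where reads cannot be told apart without strand, and their proteins form a complex that ubiquitinates histones. PARP14 (122680618 to 122730840, plus strand), a mono-ADP-ribosyltransferase, lies beyond DTX3L. DTX3L stood at 83.0, 78.4 and 79.2 CPM in shITGB5 libraries, against 104, 95.4 and 92.9 CPM in shcontrol libraries. PARP9 stood at 38.5, 37.8 and 36.9 CPM in shITGB5 libraries, against 45, 46.1 and 44.3 CPM in shcontrol libraries. PARP14 stood at 56.5, 58.8 and 58.2 CPM in shITGB5 libraries, against 72.8, 77.5 and 71.5 CPM in shcontrol libraries. In each of the 3 genes the groups were clearly apart. The falls were 17.7% for DTX3L (log2 -0.28, SE 0.044, edgeR adjusted p = 1.59e-06), 16.4% for PARP9 (log2 -0.26, SE 0.060, adjusted p = 0.0011) and 21.8% for PARP14 (log2 -0.35, SE 0.049, adjusted p = 7.59e-08).

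The genes around the locus did not pass. PARP15, which lies between DTX3L and PARP14, averaged 1.48 CPM in shITGB5 cells and 1.26 CPM in shcontrol cells (log2 0.23), and KPNA1, HSPBAP1 and DIRC2 had log2 changes of -0.08, 0.24 and 0.10. Within 100 kb of any of the 15 genes, 37 tested genes that are not members had 3 falls (COQ10A, UBE2Q1 and AHDC1) and 3 rises (CS, TIMELESS and RPL27). Over all genes tested, 6.74% fell and 8.31% rose, so both counts are near those shares. The median log2 change of the 37 was -0.01.

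Of 7 membrane proteins and proteins of virus entry or budding, 4 were tested and 1 fell (25%, where 6.74% of all genes fell). PLSCR1, a phospholipid scramblase, stood at 29.1, 26.6 and 28.0 CPM in shITGB5 libraries, against 29.9, 32.3 and 34.6 CPM in shcontrol libraries. It was 13.3% lower (log2 -0.21, SE 0.072, edgeR adjusted p = 0.0425), with shITGB5 library 1 close to shcontrol library 1. The call was lost without shITGB5 library 2 or 3 (adjusted p 0.162 and 0.101) or shcontrol library 2 or 3 (0.0874 and 0.234). The other 3 tested members of this group had positive changes. IFITM2, which blocks virus fusion, stood at 12.2, 12 and 12.7 CPM in shITGB5 libraries, against 10.7, 12.5 and 10.8 CPM in shcontrol libraries (log2 0.12, adjusted p = 0.553). IFITM3 averaged 3.77 ± 0.309 CPM in shITGB5 cells and 2.91 ± 1.10 CPM in shcontrol cells (log2 0.38, adjusted p = 0.272), and passed only when shcontrol library 3 was left out (log2 0.72, adjusted p = 0.036). IFITM1, IFITM2 and IFITM3 are near-identical copies between which reads can be split, so their values are uncertain, and IFITM3 also overlaps AC136475.1 on the opposite strand, with 171% of its counts. MX1, a dynamin-like GTPase and a common reporter of interferon signalling, was low at 2.78 ± 0.314 CPM in shITGB5 cells and 2.48 ± 0.540 CPM in shcontrol cells (SD, n = 3 each), with a log2 change of 0.17 that did not pass.

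Of the other 9 induced genes, 6 were tested and 2 fell (33.3%, where 6.74% of all genes fell). IFI6, a small membrane protein that blocks flavivirus replication at the endoplasmic reticulum, stood at 31.3, 33.3 and 32.4 CPM in shITGB5 libraries, against 36.9, 40.6 and 37.4 CPM in shcontrol libraries. It was 15.6% lower (log2 -0.24, SE 0.066, edgeR adjusted p = 0.00571), and without shcontrol library 2 the call was lost (adjusted p = 0.0648). IFI35 stood at 2.23, 2.84 and 3.29 CPM in shITGB5 libraries, against 3.84, 4.35 and 4.43 CPM in shcontrol libraries. It was 33.7% lower on few counts (log2 -0.59, SE 0.20, edgeR adjusted p = 0.0374), and lost its call without shITGB5 library 1 or 2 (0.187 and 0.0676) or shcontrol library 2 or 3 (0.1 and 0.111). SP100, a nuclear body protein, stood at 35.2, 36.1 and 34.2 CPM in shITGB5 libraries, against 41.1, 37.9 and 38.4 CPM in shcontrol libraries, without overlap but not past the threshold (log2 -0.16, adjusted p = 0.0991). EPSTI1 was the member with the highest positive change, at 2.45, 2.54 and 2.84 CPM in shITGB5 libraries, against 2.29, 1.31 and 1.96 CPM in shcontrol libraries (log2 0.49, adjusted p = 0.229). CMPK2, a mitochondrial nucleotide kinase, and IFI27 had log2 changes of -0.22 and -0.71 and did not pass. The direction of IFI27 turned without shcontrol library 3 (log2 0.12).

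**Figure D4:**
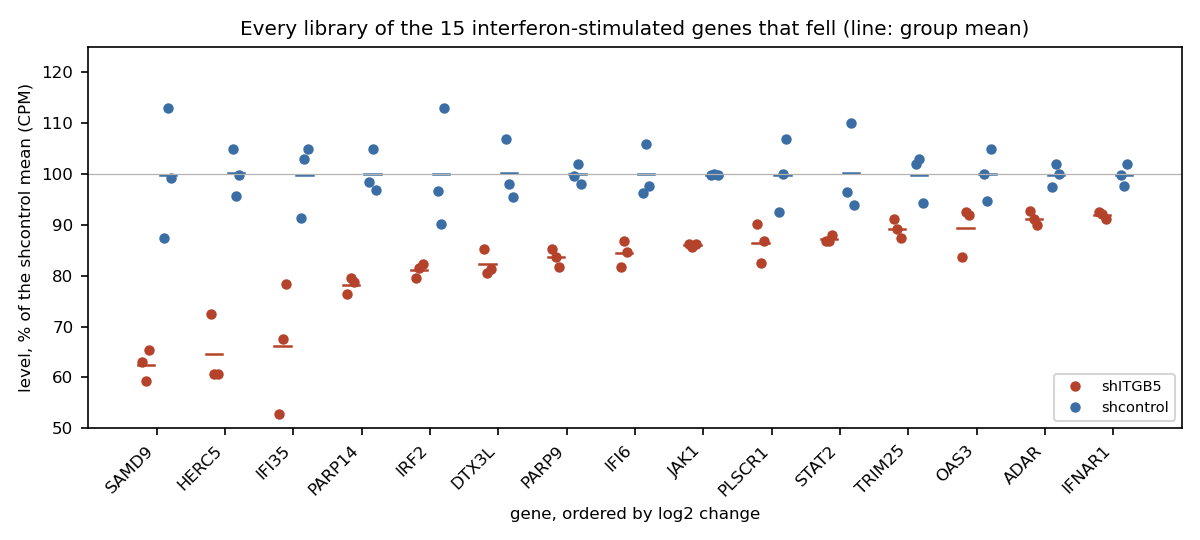
Level in every library of the 15 genes that fell, as a percentage of the shcontrol mean in CPM, with shITGB5 left of shcontrol in each pair and a line at each group mean; the axis starts at 50%. The shITGB5 points lie between 52.9% and 92.7% and the shcontrol points between 87.5% and 113%, and within each gene the groups do not overlap.

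Promoter sequences show how members with and without an ISRE compare. RefSeq promoters (GRCh38.p14, from 250 bases before to 50 after the start) were matched for 42 of the 51 genes. The ISRE core was searched on both strands as GAAA, any 2 bases, and GAAA again, and it was found in 24 of these 42 promoters (57.1%), against 3.57% of 35116 promoters. The gamma-activated site TTCNNNGAA, a binding sequence of STAT dimers, was found in 11 (26.2%, against 7.66%). A match is a description of the letters, not of binding. The windows of 80 bases below hold ISRE cores, in capitals (TTTC forms are the core on the other strand), for the 7 promoters with the core among genes that fell, and for ISG15 and IFIT3, which did not pass:
SAMD9 (chr7:93118071-93118150, minus strand): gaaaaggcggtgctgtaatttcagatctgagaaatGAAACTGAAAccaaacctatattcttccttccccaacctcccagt
HERC5 (chr4:88456984-88457063, plus strand): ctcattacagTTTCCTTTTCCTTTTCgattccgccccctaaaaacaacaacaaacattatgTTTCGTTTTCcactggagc
IFI6 (chr1:27672273-27672352, minus strand): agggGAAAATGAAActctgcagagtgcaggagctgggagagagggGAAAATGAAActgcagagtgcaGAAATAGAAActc
PARP14 (chr3:122680775-122680854, plus strand): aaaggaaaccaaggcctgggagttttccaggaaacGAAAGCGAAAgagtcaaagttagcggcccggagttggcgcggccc
DTX3L (chr3:122564297-122564376, plus strand): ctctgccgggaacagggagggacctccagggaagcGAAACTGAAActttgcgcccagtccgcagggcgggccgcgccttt
PLSCR1 (chr3:146544642-146544721, minus strand): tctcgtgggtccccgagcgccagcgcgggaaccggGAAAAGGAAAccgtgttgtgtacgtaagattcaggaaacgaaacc
OAS3 (chr12:112938427-112938506, plus strand): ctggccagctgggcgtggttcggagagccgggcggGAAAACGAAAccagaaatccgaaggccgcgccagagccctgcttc
ISG15 (chr1:1013352-1013431, plus strand): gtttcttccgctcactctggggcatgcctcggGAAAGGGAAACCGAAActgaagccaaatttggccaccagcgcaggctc
IFIT3 (chr10:89327823-89327902, plus strand): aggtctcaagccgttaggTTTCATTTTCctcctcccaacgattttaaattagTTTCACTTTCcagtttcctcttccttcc

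The core was present on both sides of the threshold. Of the 20 tested members with an ISRE core in the promoter searched, 7 fell (35%, where 6.74% of all genes fell). Of the 15 tested members with a promoter entry and no core there, 7 fell (46.7%), namely JAK1, IFNAR1, STAT2, ADAR, TRIM25, PARP9 and IFI35. The shares of falls among all genes with and without a core were not computed. These genes may hold a core at a start that was not searched. The core shown for DTX3L lies within the span of PARP9, outside the window searched for PARP9 (chr3:122564735-122565034). The window searched for JAK1 (chr1:65067697-65067996) lies outside its span in the count table, whose 5′ end is at 64966504. IRF2 fell and had no promoter entry. ISG15 has overlapping cores and a log2 change of 0.04, while IFI6 and HERC5 each have 3 cores and log2 changes of -0.24 and -0.63. IFIT5 and IFIH1 also have 3 cores each, with log2 changes of 0.10 and -0.08 that did not pass.

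A pair of 7-base words, AGACCAA and GACCAAA, had been singled out in 3′ untranslated regions (UTRs) of genes lower in the same libraries, so their presence among members is no independent evidence. In the principal GENCODE 29 transcript, 7 of the 42 tested members (16.7%) hold a word, against 15.8% of 13229 genes tested. Of the 15 members that fell, 5 hold it (33.3%), where 34.8% of all genes that fell and 14.2% of those that did not fall hold it. With the longest 3′ UTR of each gene in place of the principal one, 9 tested members hold a word. The sites are shown as 30 bases of the transcript with the words in capitals (the 8 capitals of IFNAR1 hold both words, overlapping), for the 5 genes that fell and for IFIT2 and EIF2AK2, which did not pass (GRCh38):
SAMD9 (chr7:93100087-93100116, minus strand): aaattgcaaagGACCAAAaaaatgttgggg
JAK1 (chr1:64834193-64834222, minus strand): aacgaggagttGACCAAAataatatctgaa
ADAR (chr1:154582981-154583010, minus strand): tctgtacttttGACCAAAaattGACCAAAg
IFNAR1 (chr21:33356106-33356135, plus strand): tgagatgagtcAGACCAAAacagtggccac
OAS3 (chr12:112972655-112972684, plus strand): ggtacgtaaatAGACCAAtgcagttaggtg
OAS3 (chr12:112972818-112972847, plus strand): agagaaagtgaAGACCAAgtccagaactga
IFIT2 (chr10:89307829-89307858, plus strand): aaaagctggcgGACCAAAgtctaaataggg
EIF2AK2 (chr2:37104656-37104685, minus strand): taagatacaatGACCAAAtgcaatgtttga

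Falls were found among members with and without a word. Of the 7 tested members with a word, 5 fell (71.4%). Of the 35 tested members without it, 10 fell (28.6%), among them HERC5, PARP14, DTX3L, PARP9 and IFI6. Of the 13229 genes tested with a principal 3′ UTR, 1034 fell, and of the 2089 of them with a word, 360 fell. Falls were thus more frequent with a word over all genes also, and the difference is not particular to the members. The median log2 change was -0.13 with a word and -0.20 without, and the median SE was 0.057 and 0.11. The part of the words in the falls of SAMD9, JAK1, ADAR, IFNAR1 and OAS3 was not tested.

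Most of the other interferon pathway genes tested did not pass. In a list of 29 further pathway genes, 20 were tested, 3 fell, 2 rose and 15 did not pass, with a median log2 change of 0.02. The 3 falls are 15% of those tested, where 6.74% of all genes fell, and the 2 rises of 20 are near the 8.31% of all genes that rose. MAVS, the mitochondrial adaptor of RIG-I and MDA5, stood at 256, 258 and 261 CPM in shITGB5 libraries, against 289, 300 and 302 CPM in shcontrol libraries (log2 -0.20, edgeR adjusted p = 1.57e-07). Its groups were clearly apart. IKBKE, a kinase that acts on IRF3, had a log2 change of -0.25 (adjusted p = 0.00742) and lost its call without shITGB5 library 3 (0.0622) or shcontrol library 2 (0.0568). PIAS1, a SUMO ligase that inhibits STAT signalling, had a log2 change of -0.17 (adjusted p = 0.0341) and lost its call without shITGB5 library 1 or 2 (0.104 and 0.129) or shcontrol library 1 or 2 (0.166 and 0.0618).

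Of the rises, TRAF3, a ubiquitin ligase of the pathway to IRF3, stood at 40.3, 39.3 and 37.4 CPM in shITGB5 libraries, against 29.5, 30.5 and 32.9 CPM in shcontrol libraries (log2 0.33, edgeR adjusted p = 0.000135). IFNLR1, the specific receptor chain for interferon lambda, stood at 23.2, 21.4 and 21.4 CPM in shITGB5 libraries, against 18.5, 18.4 and 19.2 CPM in shcontrol libraries (log2 0.24, edgeR adjusted p = 0.0478). Its call was lost whichever of the 6 libraries was left out (adjusted p 0.0682 to 0.21). Of this list, 2 genes passed without shcontrol library 2 in place of 5, and 3 passed without shITGB5 library 1 or 3, without shcontrol library 1, or with no filter on low counts. The interferon genes IFNB1, IFNA1, IFNL2 and IFNL3 had 0 counts in every library, and IFNL1, IFNG and IFNE stood at 0.287 CPM or less in each library.

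A second list held 54 further interferon-induced genes, of which 38 were tested, 8 fell, 1 rose and 29 did not pass, with a median log2 change of -0.07. The 8 falls are 21.1% of those tested, where 6.74% of all genes fell, and 1 of the 38 rose, where 8.31% of all genes rose. Guanylate-binding proteins, GTPases that act on pathogen membranes and are best known as targets of interferon gamma, made up 4 of the falls. GBP2 stood at 36.5, 30.1 and 35.1 CPM in shITGB5 libraries, against 47.4, 47.5 and 47.7 CPM in shcontrol libraries (log2 -0.49, edgeR adjusted p = 2.3e-08). GBP1 stood at 20.9, 22.4 and 23.3 CPM in shITGB5 libraries, against 29.4, 29.3 and 30.6 CPM in shcontrol libraries (log2 -0.42, edgeR adjusted p = 2.44e-05). GBP3 stood at 7.41, 6.96 and 8.01 CPM in shITGB5 libraries, against 11.0, 11.9 and 10.6 CPM in shcontrol libraries (log2 -0.58, edgeR adjusted p = 0.000356). These 3 genes had wide gaps between groups and kept their calls whichever library was left out. GBP4 rested on 11, 4 and 4 counts in shITGB5 libraries, against 16, 8 and 24 counts in shcontrol libraries, which overlap (log2 -1.39, edgeR adjusted p = 0.0478), and lost its call without shITGB5 library 2 or 3 (0.179 and 0.204) or shcontrol library 1 or 3 (0.102 and 0.377).

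WARS, a tryptophanyl-tRNA synthetase, and ZC3HAV1 (ZAP), which binds CpG-rich viral RNA, had log2 changes of -0.27 and -0.22 (edgeR adjusted p = 0.00192 and 0.000668). TDRD7 and RNF213 were the remaining falls (log2 -0.18 and -0.12, adjusted p = 0.0339 and 0.0089), and SHISA5 the rise (log2 0.13, adjusted p = 0.0126). TDRD7 lost its call without shITGB5 library 1 or 2 (0.257 and 0.111) or shcontrol library 1 or 3 (0.242 and 0.0576). RNF213 lost it without shITGB5 library 1 (0.0984) or shcontrol library 2 (0.152), and SHISA5 without shITGB5 library 2 (0.0651) or shcontrol library 1 (0.157).

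**Figure D5:**
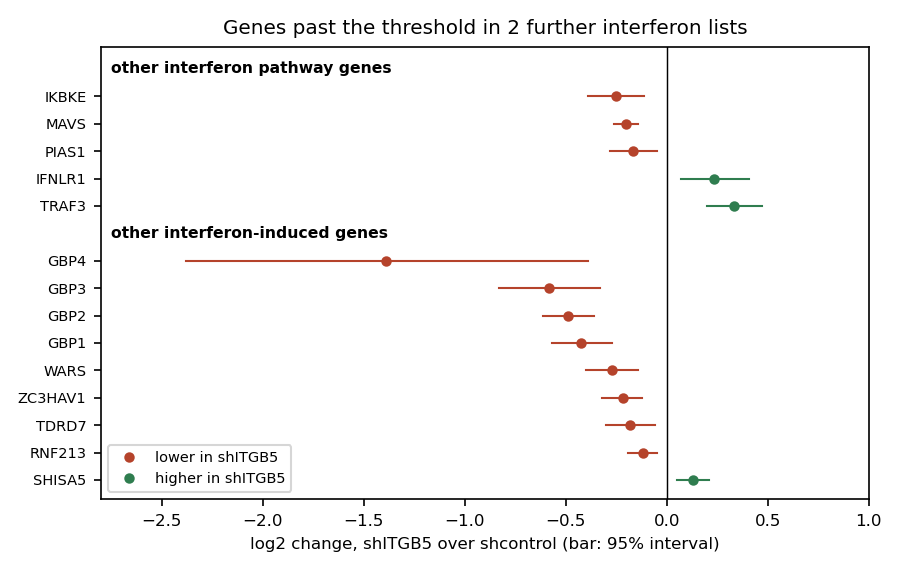
Log2 change, shITGB5 over shcontrol, with its 95% interval for the genes past the adjusted p of 0.05 in the lists of 29 further pathway genes and 54 further interferon-induced genes. TRAF3, IFNLR1 and SHISA5 lie right of 0, and the other genes, GBP2 and MAVS among them, lie left of it.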

How the data were processed

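Per the labels' protocols, total RNA of Huh7 cells was made into directional libraries. The authors deposited 1 table of whole-number counts per gene, which were used unchanged. The sources used here give no aligner, counting tool or strandedness of the counting. Groups came from the labels; columns coded S were read as shITGB5 and those coded NC as shcontrol, a reading the labels do not spell out, and 0 value columns were left unmapped. Identifiers and positions of all 58735 genes equalled GENCODE 29 (GRCh38).

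edgeR 4.0.16 (R 4.3.3) was run on the whole table with filterByExpr, TMM scaling and the quasi-likelihood test, without covariates; p-values were two-sided, with Benjamini-Hochberg adjustment over 16577 genes and a threshold of 0.05. CPM used TMM-scaled totals, and FPKM was computed from CPM and the table's gene lengths. The steps were tested on simulated data. Same-numbered libraries of the 2 groups did not deviate together (correlations 0.028, -0.000125 and -0.0174). The values therefore showed no pairing by number, but they cannot tell whether same-numbered libraries were prepared together. Alternatives were RLE factors, library totals, other filters, DESeq2 1.42.0, a block for the replicate number, and fits without each library in turn. No 2 libraries of a group agreed within counting noise (chi-square per degree of freedom 2.02 to 2.32).

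Members and lists were chosen with earlier results of these data known, and 1 gene of the pathway list is not reported here. Values in every library are given for members past the threshold, the receptor, kinase and ISGF3 members, the 6 most abundant members that did not pass, and those with an adjusted p of 0.05 to 0.1; up to 6 genes past the threshold are named from each other interferon list. EPSTI1, TDRD7, RNF213, SHISA5 and the neighbouring genes were added after their values were seen. TCF4 (log2 -0.16), of 5 plasmacytoid dendritic cell markers, and LUM (log2 0.22), of 7 fibroblast markers, were the only markers of other cell types past the threshold.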

Additional observations from a re-analysis of the deposited data

How the results depend on the processing

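The count of 15 members that fell was 15 with RLE factors, with library totals and with a filter of 1 CPM. It was 11 with DESeq2, which gave an adjusted p to 31 of the 42 tested members and none to IFI35. It was 13 with the replicate number as a block, and 10 to 13 without each library in turn. With no low-count filter it was 9, where every gene with a count was tested and the adjustment ran over more genes. The block lost IFNAR1 (adjusted p = 0.0627) and PLSCR1 (0.0509), and the numbers mark no known pairing. The 4 falls among signalling members and factors were 1 with no low-count filter and 1 to 3 without each library. Without each library, effectors gave 8 to 10 falls (11 with all), further pathway genes 2 to 4 calls (5, and 3 with no low-count filter), further induced genes 6 to 9 (9) and all genes 1939 to 2183 (2495), the median member log2 change was -0.17 to -0.13, and that of ITGB5 was -0.29 to -0.25. The cause of these shifts was not tested. Leaving out a library turned the direction of 9 members that did not pass, whose log2 changes then ranged from -0.0584 to 0.0578 (DDX58), -0.2876 to 0.0161 (HERC6), -1.1647 to 0.1160 (IFI27), -0.5614 to 0.0623 (IFIT1), -0.1362 to 0.0704 (IFIT2), -0.0045 to 0.1902 (IFIT5), -0.4917 to 0.0333 (IRF7), -0.0546 to 0.0946 (ISG20) and -0.0214 to 0.1550 (USP18). Members under 20 CPM had wide intervals, so falls of the size seen in abundant members were often not detectable there.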
